A study of Mus musculus with 29 samples.

Results

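The genes described were 10 members of the SLAM family of leukocyte receptors and of the SAP family of adaptors that dock on their tails. They were the rows of the count table with the symbols Slamf1, Slamf6, Slamf7, Slamf8, Slamf9, Cd48, Cd84, Ly9, Sh2d1a and Sh2d1b1, 10 of 24421 genes. The members were chosen by their levels under dual blockade, where Slamf8, Slamf7 and Sh2d1a rose, so for the 2 dual comparisons their values are a description, no p of a member is given, and counts of members past a threshold stand beside the share of all genes with nothing read from them.

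SLAM receptors sit on blood cells, and most of them bind a copy of themselves on the neighbouring cell. The tails of most members carry tyrosine switch motifs, which recruit the small SH2 adaptors SAP (encoded by Sh2d1a) and EAT-2 (encoded by Sh2d1b1), or inhibitory phosphatases such as SHP-1 and SHIP-1 in their place. SAP is known from T cells and NK cells, where it brings the kinase Fyn to the receptor, and its loss in people causes X-linked lymphoproliferative disease.

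RNA-seq libraries, 29 in all, were analysed, and each was taken as 1 mouse from its numbered title. In the column names the libraries under both antibodies at day 21 are not numbered consecutively, and the reason is not given. Female C57BL/6J mice, 5 to 6 weeks old at the start, all received YTN16 cells, a mouse gastric cancer line, into the peritoneal cavity. The untreated groups (titled Control) received PBS, and the treated groups received anti-PD1 (titled PD-1, 10 mg/kg), anti-CTLA4 (titled CTLA-4, 5 mg/kg) or both (titled PD-1_CTLA-4, here dual ICI). At 3wk (day 21) there were 5 untreated and 5 dual ICI mice, and at 5wk (day 35) there were 5 untreated, 5 anti-PD1, 4 anti-CTLA4 and 5 dual ICI mice. The labels give these 6 groups. The division of the dual ICI mice at 5wk into uncured and cured appears only in the study text. It names mice 1 and 5 as uncured and mice 2, 3 and 4 as cured. It also reports 1 of 5 anti-PD1 mice as cured, without its number. The labels do not say whether mouse numbers are library numbers. The 5 dual ICI libraries at 5wk were therefore kept as 1 group and are shown singly, with libraries 1 and 5 and libraries 2, 3 and 4 as subsets.

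Levels are CPM, counts scaled to TMM-adjusted library totals, and library totals lay between 25989217 and 31219650 counts. The labels call every sample tumor tissue, whereas the study's methods name stripped peritoneum with or without nodules. Skeletal muscle markers (10 genes) summed to 19207 CPM at the least and 237957 CPM at the most, and every library held them. Gastric epithelium markers (11 genes) summed to between 839 and 4250 CPM in 25 libraries. In dual ICI libraries 2, 3 and 4 at 5wk they summed to 95.0, 40.0 and 18.3 CPM, with 3, 4 and 4 of the 11 markers at 0, and in anti-PD1 library 5 to 61.5 CPM, with 3 at 0. These 4 libraries were also those with the highest muscle sums, from 206699 to 237957 CPM. Comparisons and correlations that hold them are also given without them.

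Among the members, levels per kilobase of exon spanned a wide range. In untreated mice at 3wk, Cd48 was highest at 10.9 CPM per kb, followed by Slamf9 (5.88), Cd84 (3.40), Ly9 (2.69), Slamf7 (1.36), Slamf8 (1.26) and Sh2d1b1 (0.644). Slamf6 (0.0897), Slamf1 (0.0538) and Sh2d1a (0.0116) were lowest. Before division by exon length, Slamf6 had 17 to 35 counts per library in these mice, Slamf1 had 4 to 17 and Sh2d1a 1 to 2. The levels per kb of neighbours overlapped between mice for Slamf9 with Cd84, Cd84 with Ly9, Slamf7 with Slamf8 and Slamf6 with Slamf1, and the other neighbours in this order did not overlap. Slamf1 never passed 27 counts in a library, and a single count of Sh2d1a was the lowest value found.

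**Figure D1:**
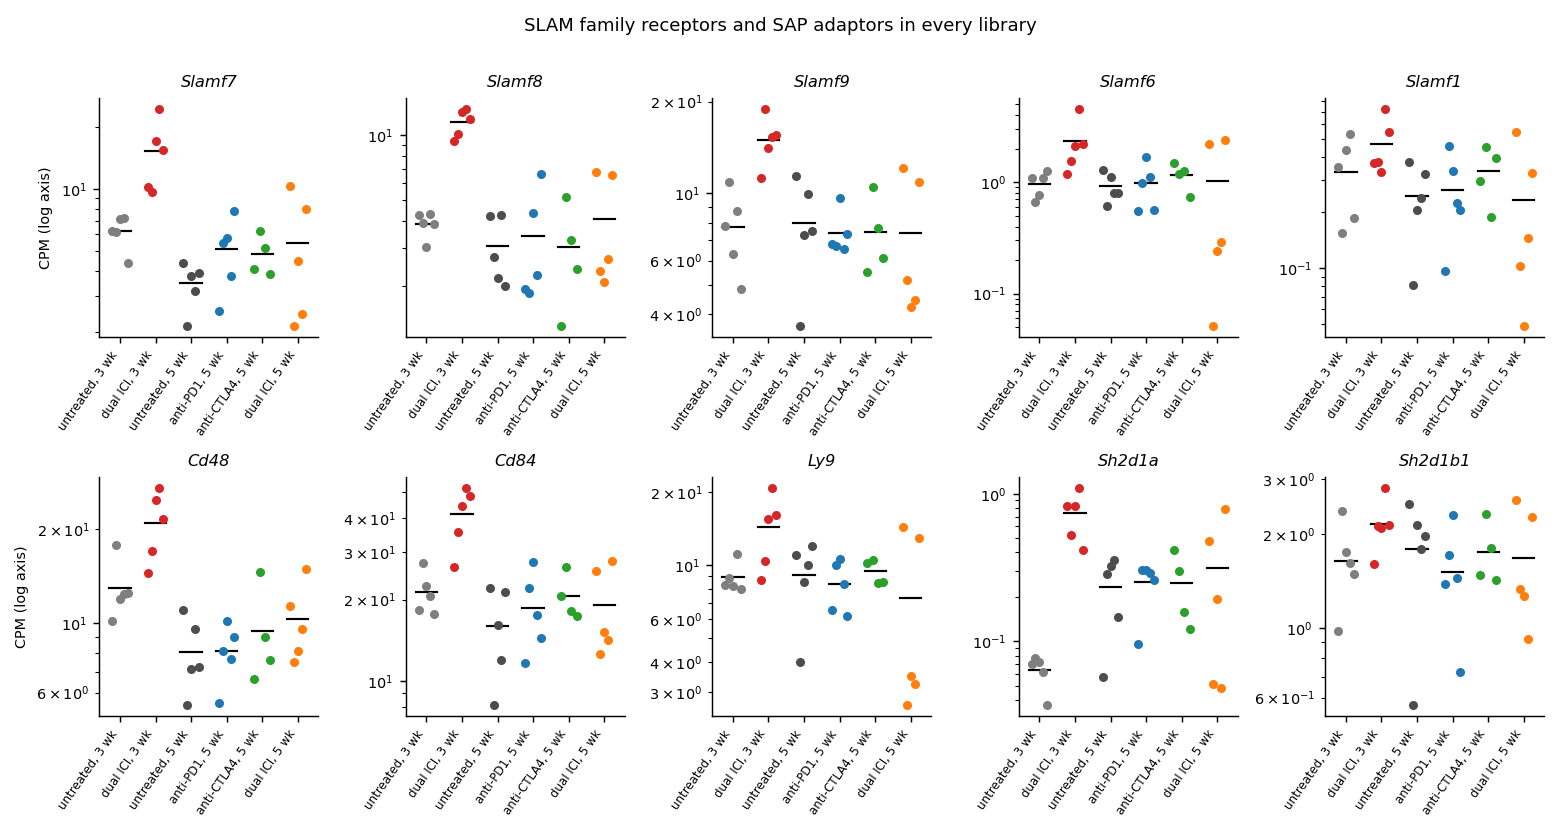
Level of each of the 10 genes in every library, with CPM on a log axis, 1 point per mouse, groups on the horizontal axis and a line at each group mean. The 5 dual ICI mice at 3wk lay above the 5 untreated mice at 3wk for Slamf7, Slamf8, Slamf9 and Sh2d1a, while the 5 dual ICI mice at 5wk were split for most genes.

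The first question was how the family behaved in dual ICI mice at 3wk. The fitted log2 fold change was above 0 for 10 of 10 genes, with a median of 0.96 against 0.02 over all 15503 genes tested. Of the 10, 4 did not overlap between the groups, Slamf7, Slamf8, Slamf9 and Sh2d1a, where 1.83 percent of all genes tested were higher without overlap. With edgeR's quasi-likelihood test, 2 of the 10 (Slamf8 and Sh2d1a) passed a Benjamini-Hochberg adjusted p of 0.05, beside 0.574 percent of all genes in either direction and 0.471 percent that were higher. The choice of the genes used this comparison, so that they passed is no result. Other settings moved the count of members both ways, to 7 with DESeq2 (beside 2.51 percent of all genes), 4 without dual ICI library 1, and 1 with all 29 libraries in 1 fit or with at least 10 counts required in every library. Over all genes 89 passed, 6 without untreated library 5, 8 with all 29 libraries and 119 without dual ICI library 1.

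Slamf8 is a receptor of myeloid cells whose short tail lacks switch motifs, known for restraining oxidant production in phagocytes. In untreated mice at 3wk its levels were 4.28, 3.91, 3.02, 4.32 and 3.90 CPM. In dual ICI mice they were 9.46, 10.1, 12.8, 13.3 and 11.9 CPM. The groups were far apart, with the lowest dual ICI mouse at 9.46 CPM and the highest untreated mouse at 4.32 CPM. The log2 fold change was 1.57 (SE 0.16), from a mean of 3.88 ± 0.522 to 11.5 ± 1.66 CPM (SD, n = 5 each).

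Slamf7 (also CRACC or CS1) is a receptor of NK cells, plasma cells and macrophages that signals through EAT-2 in NK cells and, on macrophages, partners with the integrin Mac-1 in phagocytosis. Untreated mice at 3wk held 6.24, 6.16, 7.13, 7.24 and 4.34 CPM. The dual ICI mice held 10.2, 9.62, 17.1, 24.5 and 15.4 CPM. Every dual ICI mouse was higher, but libraries 1 and 2 were much closer to the untreated mice than library 4. The log2 fold change was 1.32 (SE 0.26), from 6.22 ± 1.16 to 15.3 ± 6.03 CPM (SD, n = 5 each).

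Slamf9 is another myeloid receptor with a short tail. Its untreated levels at 3wk were 7.81, 10.9, 6.29, 8.73 and 4.82 CPM, and its dual ICI levels were 11.2, 18.9, 14.1, 15.3 and 15.5 CPM. The gap between the groups was narrow, from 10.9 to 11.2 CPM. The log2 fold change was 0.96 (SE 0.22).

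These 3 receptor genes lie on chromosome 1 of GRCm38. Slamf7 spans chr1:171632403-171653035 on the minus strand with 8 exon blocks, Slamf9 spans chr1:172475358-172478575 on the plus strand with 4, and Slamf8 spans chr1:172581758-172590568 on the minus strand with 5. The 250 bases upstream of the RefSeq start of each, on GRCm38.p6, are printed 5′ to 3′ because these are the receptor genes that did not overlap at 3wk. Capitals mark matches, on either strand, to 5 searched motifs that are named after them. The windows are chr1:172590569-172590818 (minus strand) for Slamf8, chr1:171649000-171649249 (minus strand) for Slamf7 and chr1:172475110-172475359 (plus strand) for Slamf9.
Slamf8: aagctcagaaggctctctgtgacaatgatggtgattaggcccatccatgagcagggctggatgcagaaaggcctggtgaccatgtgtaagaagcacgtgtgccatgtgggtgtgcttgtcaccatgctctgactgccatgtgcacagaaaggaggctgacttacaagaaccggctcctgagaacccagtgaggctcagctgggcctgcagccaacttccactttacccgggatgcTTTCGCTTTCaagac
Slamf7: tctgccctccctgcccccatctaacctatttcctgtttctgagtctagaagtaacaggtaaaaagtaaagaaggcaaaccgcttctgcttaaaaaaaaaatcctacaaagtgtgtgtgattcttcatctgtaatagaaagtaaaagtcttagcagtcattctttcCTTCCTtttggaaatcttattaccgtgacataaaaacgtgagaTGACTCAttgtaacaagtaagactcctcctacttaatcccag
Slamf9: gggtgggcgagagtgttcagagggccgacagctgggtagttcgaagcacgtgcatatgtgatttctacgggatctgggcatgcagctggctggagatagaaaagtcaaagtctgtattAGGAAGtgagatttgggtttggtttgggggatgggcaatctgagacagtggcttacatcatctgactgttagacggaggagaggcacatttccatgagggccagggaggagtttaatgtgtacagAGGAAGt
The Slamf8 window held 1 match to an interferon response element pattern, GAAA and again GAAA after any 2 bases, which is present in 2.98 percent of all 32851 promoters of this length. The Slamf7 window held the ETS core AGGAAG (in 29.5 percent of promoters) and the AP-1 pattern TGANTCA (in 6.75 percent), and the Slamf9 window held AGGAAG at 2 places. The STAT pattern TTCNNNGAA (in 7.02 percent) was in 0 of the 8 member windows that had an entry, and the RUNX pattern TGTGGT (in 14 percent) was in those of Cd48, Cd84 and Sh2d1b1. A match is a description of the letters. RefSeq entries were matched for 8 of the 10 members by symbol, without Ly9 and Sh2d1a.

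Among the receptors with switch motifs, Slamf6 (Ly108), known from T cells and from less differentiated exhausted T cells, went from 1.09, 0.658, 0.764, 1.09 and 1.26 CPM in untreated mice to 1.19, 1.57, 2.12, 4.55 and 2.20 CPM in dual ICI mice. Its groups overlapped in library 1 alone, and library 4 stood above the rest. Cd84, a self-binding receptor of lymphoid and myeloid cells, had a mean of 21.3 ± 3.85 CPM (SD, n = 5) in untreated and 41.3 ± 10.3 CPM in dual ICI mice, with a log2 fold change of 0.96 (SE 0.20). Its overlap came from 1 dual ICI mouse at 26.3 CPM beside an untreated mouse at 27.3 CPM. Ly9 (CD229), found on T and B cells and on some macrophages, had 8.88 ± 1.29 and 14.3 ± 4.83 CPM, and its groups overlapped. Slamf1 (CD150), the founding member, had means of 0.331 and 0.467 CPM, and its counts were too few to place it.

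Cd48 is the ligand side of the family, a lipid-anchored protein bound by Cd244 and Cd2. Its untreated levels at 3wk were 10.2, 17.8, 11.9, 12.4 and 12.5 CPM, and its dual ICI levels were 14.4, 17.0, 24.8, 27.0 and 21.4 CPM. The groups overlapped, through untreated library 2. The log2 fold change was 0.70 (SE 0.21).

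The adaptors differed in level and in the size of the difference. Sh2d1a, on chromosome X at chrX:42502453-42529330 (plus strand), had 2, 2, 2, 2 and 1 counts in the untreated mice at 3wk and 20, 14, 25, 41 and 13 counts in the dual ICI mice. The groups were separate. From 9 counts against 113 in all, the ratio of levels was 11.8. Its exact 95% interval, 5.99 to 26.4, covers counting error only and leaves out the spread between mice. Because the rise of Sh2d1a was part of the choice of genes, the interval is a description and no test. Of its exon bases, 26.6 percent are shared with Tenm1 on the other strand, and whether the counting used strand is not given in the sources used here. Sh2d1b1, which encodes EAT-2, had 1.64 ± 0.498 CPM (SD, n = 5) in untreated and 2.15 ± 0.429 CPM in dual ICI mice, and its groups overlapped.

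These are bulk samples, in which fewer cells of a type and less RNA per cell cannot be told apart. At 3wk the pan-leukocyte gene Ptprc (CD45) was 78.7 ± 9.79 CPM (SD, n = 5) in untreated and 123 ± 33.2 CPM in dual ICI mice. The CD8 T cell markers Cd8a and Cd8b1 summed to 1.94 to 5.57 CPM in untreated and 11.3 to 32.0 CPM in dual ICI mice, and 2 of 2 passed the test as higher. Of the T cell list, 8 of 11 genes were in the table, 3 of 8 passed as higher, and 7 of 8 had log2 fold changes above 0. Their median log2 fold change was 1.33, and the sums were 70.1 to 90.9 against 91.0 to 112 CPM. Of 9 macrophage markers 0 passed (9 of 9 had log2 fold changes above 0, with sums of 1065 to 1193 against 1241 to 2164 CPM), and of 7 dendritic cell markers 0 passed (6 of 7 above 0, with sums of 33.8 to 42.2 against 44.6 to 88.0 CPM). Of 3 NK cell markers fitted 0 passed (3 of 3 above 0), and the sums of the 6 listed overlapped, at 1.12 to 1.85 against 1.12 to 3.45 CPM. Of 4 plasma cell markers 0 passed (3 of 4 above 0), and the sums overlapped too, at 6.87 to 46.8 against 18.4 to 76.0 CPM. The part of these cells in the member values was not tested.

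The members were also set against leukocyte RNA. Per 100 Ptprc counts, a scale chosen after the values were seen, Slamf8 was 5.00 ± 0.969 (SD, n = 5) in untreated and 9.67 ± 1.40 in dual ICI mice at 3wk. Slamf7 was 7.97 ± 1.67 and 12.3 ± 1.86, Cd84 27.0 ± 2.77 and 33.8 ± 2.33, and Sh2d1a 0.0817 ± 0.0216 and 0.626 ± 0.259. These 4 did not overlap between the groups, where 0.232 percent of all genes tested were higher without overlap on this scale. Cd48 (16.3 ± 1.73 and 17.2 ± 0.842) and Ly9 (11.3 ± 1.53 and 11.4 ± 0.917) overlapped. Slamf6 (1.27 ± 0.412 and 1.81 ± 0.537) and Slamf9 (9.74 ± 2.35 and 12.9 ± 3.88) overlapped too, although their ratios of means, 1.43 and 1.32, were larger than the 1.25 of Cd84. Slamf9 was separate in CPM and Cd84 was not. Nothing is read from the count, since it came from the comparison that chose the genes.

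**Figure D2:**
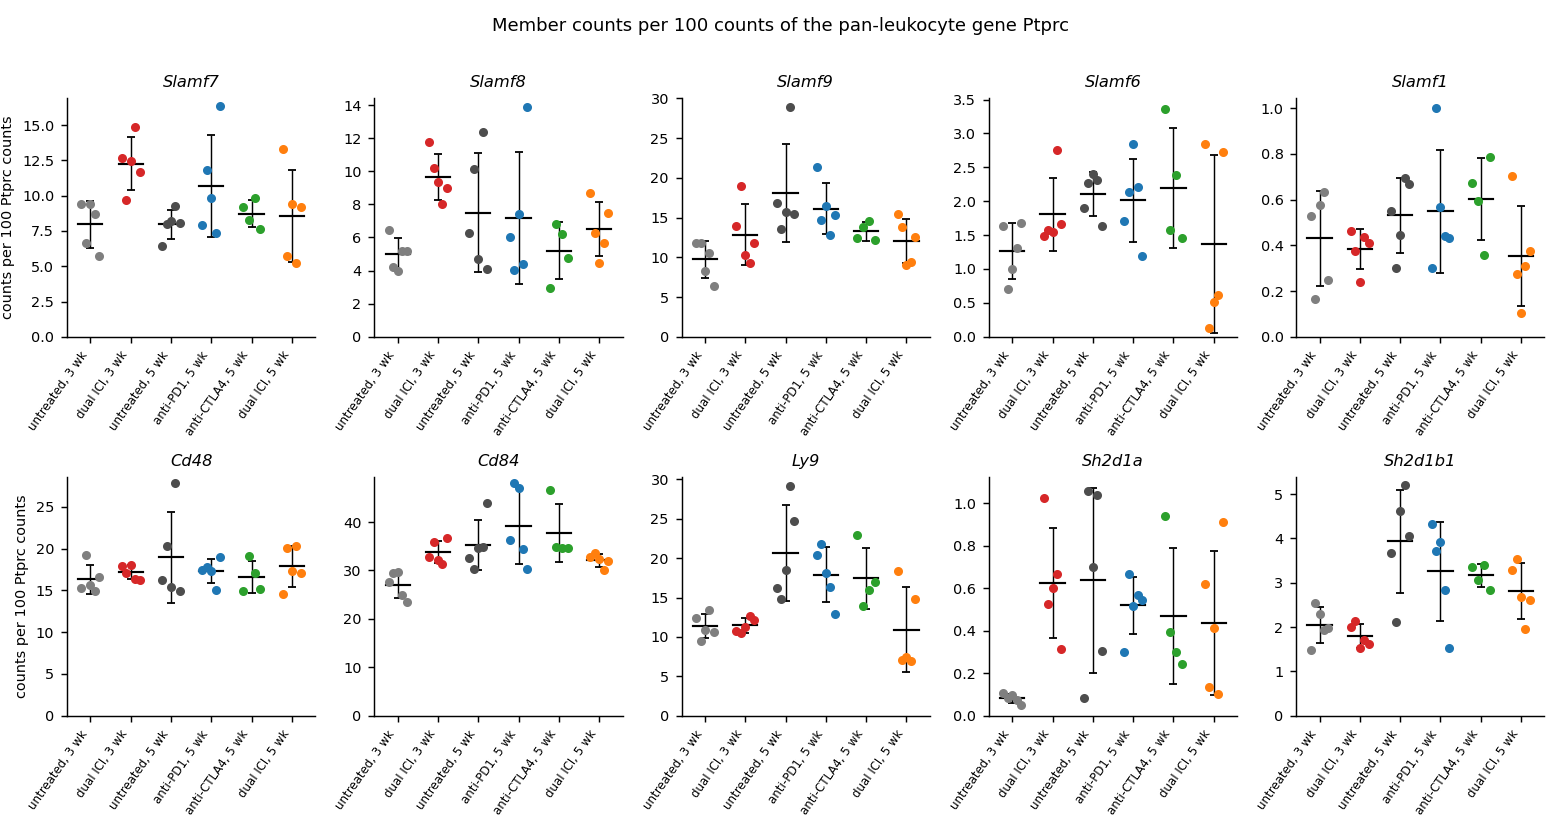
Counts of each gene per 100 counts of Ptprc in every library, with groups on the horizontal axis, a line at the mean and bars of 1 SD. At 3wk Slamf7, Slamf8, Cd84 and Sh2d1a did not overlap between untreated and dual ICI mice, whereas Cd48 and Ly9 lay at like levels, with means of 16.3 and 17.2 and of 11.3 and 11.4.

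At 5wk, the dual ICI group as a whole was spread widely and overlapped the untreated group in all members. The fit across 15588 genes passed 0 genes with edgeR's quasi-likelihood test (1071 at an unadjusted p under 0.05, and 46 with DESeq2), which is 0 percent. Of the 10 members 8 had counts enough to be fitted, 0 passed, and 10 of 10 overlapped between the groups, where 1.2 percent of all genes tested did not. Fitted log2 fold changes ran from −0.31 (Ly9) to 0.66 (Slamf7). The single libraries fell apart, and the tissue markers differed between them in the same way.

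For Slamf7, dual ICI libraries 1 to 5 held 10.3, 2.15, 4.43, 2.47 and 7.99 CPM, and the untreated mice at 5wk held 4.35, 2.15, 3.78, 3.18 and 3.90 CPM. For Slamf8, the dual ICI values were 6.74, 2.36, 2.10, 2.66 and 6.52 CPM, beside 4.24, 2.72, 2.17, 4.26 and 2.00 CPM. In both genes libraries 1 and 5 stood above every untreated mouse, and libraries 2, 3 and 4 lay at or near the untreated range. Library 1 had 77.8 and library 5 had 86.9 CPM of Ptprc, against 37.5, 47.1 and 47.1 CPM in libraries 2, 3 and 4.

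Ly9 and Slamf6 set libraries 2, 3 and 4 apart in the other direction. Ly9 was 14.3, 2.66, 3.51, 3.24 and 12.9 CPM in dual ICI libraries 1 to 5, and 11.0, 3.98, 8.53, 10.0 and 12.0 CPM in untreated mice. Slamf6 was 2.22, 0.0512, 0.244, 0.291 and 2.37 CPM, beside 1.29, 0.610, 1.11, 0.796 and 0.793 CPM. In both genes libraries 2, 3 and 4 lay below all 5 untreated mice. A single count of Slamf6 was found in library 2.

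Cd48 spanned a narrower range over the 5 libraries, at 11.3, 7.53, 8.14, 9.59 and 14.9 CPM beside 11.0, 5.49, 7.12, 9.59 and 7.25 CPM in untreated mice. Cd84 was 25.5, 12.6, 15.2, 14.1 and 27.7 CPM, Slamf9 was 12.1, 5.17, 4.24, 4.46 and 10.9 CPM, and Sh2d1b1 was 2.57, 1.33, 1.27, 0.920 and 2.26 CPM. In each of these 4 genes libraries 1 and 5 were the highest of the 5. Sh2d1a was at 15, 1, 4, 1 and 29 counts, and the untreated mice had 2 to 11 counts.

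Taken alone, libraries 1 and 5 had log2 fold changes above 0 against untreated mice in 10 of 10 members, from 0.42 to 1.46 with a median of 0.76. Both libraries were above all untreated mice in 7 members, where 9.22 percent of all genes tested were higher without overlap. Slamf6, Slamf7, Ly9 and Sh2d1a were above all 14 other libraries at 5wk of the untreated and single-antibody groups, where 3.27 percent of genes with a mean of at least 1 CPM were (the mean of Sh2d1a was below that limit). Slamf8 was not, because anti-PD1 library 5 held 6.61 CPM. With 2 libraries, 0 of 16156 genes passed (787 at an unadjusted p under 0.05).

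Libraries 2, 3 and 4 alone passed 7067 of 15816 genes, or 44.7 percent, and 26.7 percent were lower. Of the 8 members fitted, Ly9 with a log2 fold change of −1.51 (SE 0.34) and Slamf6 with −2.18 (SE 0.52) were among the genes lower, and these 2 lay below all untreated mice, where 26.9 percent of genes did, and below all 14 other libraries, where 8.42 percent of genes with a mean of at least 1 CPM did (the mean of Slamf6 was below that limit). Cd48 (0.08, SE 0.23), Cd84 (−0.16, SE 0.30), Slamf7 (−0.18, SE 0.32) and Slamf8 (−0.35, SE 0.32) were closer to 0. Over the 8 fitted, 7 were below 0, with a median of −0.47 against −0.05 over all genes tested. Slamf9 was at 4.24 to 5.17 CPM in these libraries against an untreated mean of 7.96 CPM. Sh2d1b1 was at 0.920 to 1.33 CPM against 1.79 CPM, and both overlapped the untreated mice. Per 100 Ptprc counts, Ly9 remained lower without overlap (7.14 ± 0.280 against 20.7 ± 6.09), as did Slamf6 (0.424 ± 0.254 against 2.10 ± 0.325), beside 22.9 percent of all genes. In these libraries 9 of 9 fitted gastric epithelium markers and 5 of 8 T cell markers passed as lower, and their part in the member values was not tested.

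**Figure D3:**
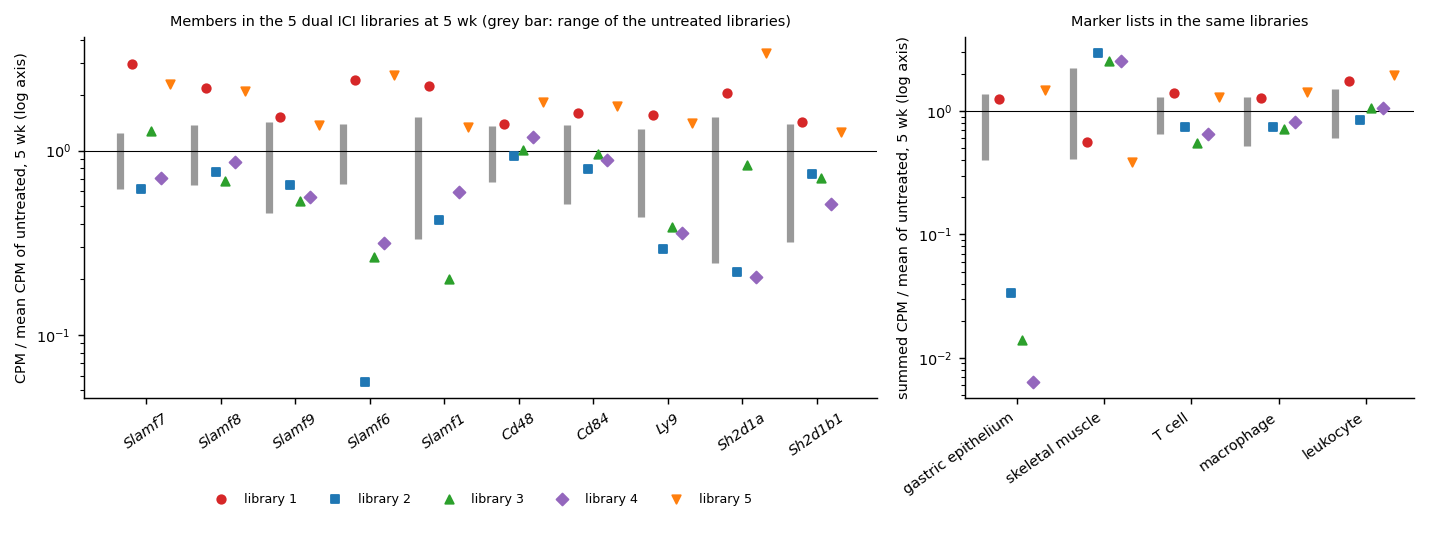
Left, level of each gene in the 5 dual ICI libraries at 5wk divided by the mean of the untreated mice at 5wk (log axis), with a grey bar over the range of the untreated mice. Right, the same for the summed CPM of 5 marker lists. Libraries 1 and 5 lay near or above the top of the bars for every gene, and libraries 2, 3 and 4 lay below the bars for Ly9 and Slamf6 and for gastric epithelium.

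The question of whether 1 antibody alone moved the family was put to tests, since the single-antibody groups did not choose the genes. Neither antibody gave a call. Against untreated mice at 5wk, 0 of 15640 genes passed for anti-PD1 (205 or 1.31 percent at an unadjusted p under 0.05, 0 with DESeq2) and 0 of 15781 for anti-CTLA4 (128 or 0.811 percent unadjusted, 0 with DESeq2), both 0 percent. At an unadjusted p under 0.05, 0 of the 8 members fitted for anti-PD1 and 0 of the 9 for anti-CTLA4 passed, and 10 of 10 overlapped in both, where 0.307 and 0.513 percent of all genes did not. The 2 comparisons share the untreated mice, which were also the baseline of the dual comparison at 5wk, so they are not fully free of the choice.

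Slamf7 had the largest fitted difference of the members in both. Anti-PD1 mice held 2.54, 5.44, 5.79, 3.76 and 7.80 CPM, and anti-CTLA4 mice held 4.06, 6.25, 5.17 and 3.86 CPM. Beside the untreated values above, the log2 fold change was 0.54 (SE 0.30) for anti-PD1 and 0.46 (SE 0.24) for anti-CTLA4, both with an adjusted p of 1.00 by edgeR's quasi-likelihood test. The fold was within the spread between mice in both groups.

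Slamf8 showed 2 high anti-PD1 mice, at 1.93, 1.86, 4.37, 2.25 and 6.61 CPM, and its log2 fold change was 0.14 (SE 0.41). The mouse at 6.61 CPM was library 5, 1 of the 4 low in gastric epithelium markers. The same library held the highest Slamf7 of its group, and per 100 Ptprc counts it reached 13.9 for Slamf8 and 16.4 for Slamf7. Without it, the log2 fold changes were −0.25 (SE 0.34) for Slamf8 and 0.32 (SE 0.28) for Slamf7, and 0 members passed. Under anti-CTLA4, Slamf8 was 1.31, 5.16, 3.28 and 2.40 CPM, with a log2 fold change of −0.04 (SE 0.40).

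Over all members fitted, the median log2 fold change was 0.05 for anti-PD1 and 0.21 for anti-CTLA4, against −0.01 and −0.02 over all genes. Cd84 had log2 fold changes of 0.23 (SE 0.31) and 0.36 (SE 0.27), Cd48 0.01 (SE 0.22) and 0.21 (SE 0.27), and Slamf9 −0.10 (SE 0.27) and −0.11 (SE 0.31). Slamf6 had 0.09 (SE 0.35) and 0.32 (SE 0.31), Ly9 −0.13 (SE 0.28) and 0.03 (SE 0.27), and Slamf1, fitted for anti-CTLA4 alone, 0.39 (SE 0.44). Sh2d1b1 was at −0.24 (SE 0.39) and −0.05 (SE 0.37). Sh2d1a, too sparse to be fitted, had 3 to 10 counts under anti-PD1, 4 to 14 under anti-CTLA4 and 2 to 11 in untreated mice.

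Set against each other, anti-PD1 and anti-CTLA4 gave 0 of 15736 genes (149 at an unadjusted p under 0.05, 0 with DESeq2), 0 percent, and 0 of 9 members fitted passed. All 10 overlapped, where 0.527 percent of all genes did not. Member log2 fold changes ran from −0.30 (Slamf1, SE 0.45) to 0.16 (Slamf8, SE 0.50). Without anti-PD1 library 5, 0 of 9 members passed (0 of 15700 genes, 413 at an unadjusted p under 0.05), and Slamf8 was at −0.21 (SE 0.44). With standard errors of this size, differences of the sizes seen at 3wk in Cd48 or Ly9 could have gone undetected.

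**Figure D4:**
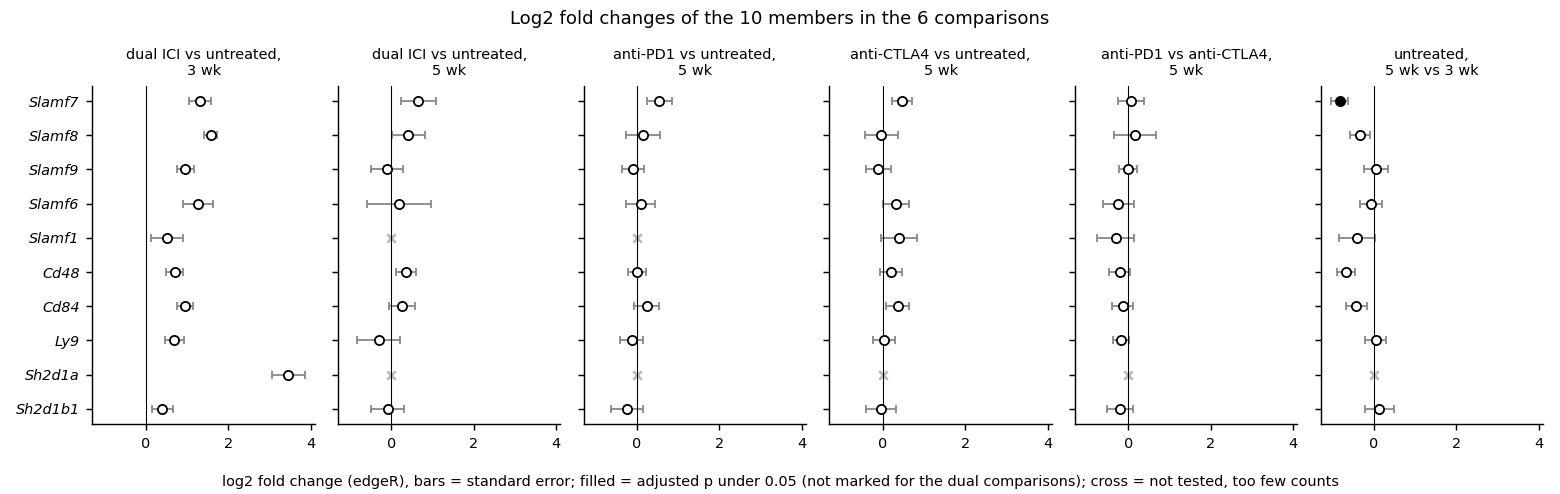
Fitted log2 fold change of each gene in 6 comparisons, with bars of 1 standard error, filled points for an adjusted p under 0.05 in the 4 comparisons that did not choose the genes, and crosses for genes with too few counts. All 10 points lay right of 0 for dual ICI at 3wk. The sole filled point was Slamf7 between untreated mice at 5wk and 3wk, where 10.8 percent of all genes passed.

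The untreated mice also allowed a comparison of 5wk with 3wk. Both groups were baselines of the dual comparisons by which the genes were chosen, so its p-values are not fully free of that choice. The library names of the 3wk and the 5wk mice carry different code prefixes, and what the codes stand for is not given. Time cannot be told apart from any batch that they may mark. In all, 1687 of 15604 genes passed, 10.8 percent, with 4.58 percent lower. Of the 9 members fitted, 1 passed, a share near that of all genes. In CPM 10 of 10 overlapped, where 11.2 percent of all genes did not. Slamf7 fell from 6.22 ± 1.16 to 3.47 ± 0.848 CPM (SD, n = 5 each), with a log2 fold change of −0.84 (SE 0.21) and an adjusted p of 0.0311 by edgeR's quasi-likelihood test. Of the 5 mice at 5wk, 1 reached the lowest mouse at 3wk, at 4.35 against 4.34 CPM. Without untreated library 3, 4 or 5 at 5wk, or library 1, 2, 3 or 4 at 3wk, the adjusted p was 0.0516 to 0.0726. With library totals alone it was 0.157, and with all 29 libraries in 1 fit 0.152. Untreated library 2 at 5wk stood low in Ptprc (27.0 CPM) and held the lowest Slamf7, and without it the log2 fold change was −0.72 (SE 0.18, adjusted p 0.0151 by edgeR).

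Ptprc moved by a like amount, with a log2 fold change of −0.82 (SE 0.21, adjusted p 0.0312 by edgeR) from 78.7 ± 9.79 to 44.8 ± 15.6 CPM. Per 100 Ptprc counts, Slamf7 was 7.97 ± 1.67 at 3wk and 7.98 ± 1.01 at 5wk. On that scale the untreated mice at 5wk were higher without overlap in Slamf9, Cd84 and Ly9, as were 40 percent of all genes tested. Cd48 had a log2 fold change of −0.68 (SE 0.21), with an adjusted p of 0.0574 by edgeR, and DESeq2 called it beside 15.7 percent of all genes. Cd84 (−0.43, SE 0.25), Slamf1 (−0.42, SE 0.44) and Slamf8 (−0.34, SE 0.25) did not pass, nor did Sh2d1b1 (0.13, SE 0.35) and Slamf6 (−0.07, SE 0.28), and Ly9 and Slamf9 both stood at 0.04. Sh2d1a was too sparse to be fitted, at 1 to 2 counts at 3wk and 2 to 11 counts at 5wk, with means of 0.0639 and 0.234 CPM, and its groups overlapped in CPM and per 100 Ptprc counts (0.0817 ± 0.0216 and 0.636 ± 0.436). The median of the members fitted was −0.34 against 0.02 over all genes. The T cell markers did not fall with Ptprc. Of 8 fitted, 7 had log2 fold changes above 0 (median 0.41), and 1 passed as higher, beside 6.24 percent of all genes. Of 9 macrophage markers, 3 were above 0 (median −0.29) and 0 passed. Among the tissue markers, Tff2 rose by 3.32 and Myh2 fell by 2.08 on the log2 scale. The part of the tissue and cell mix in the member values was not tested.

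Of the other genes of the pathway, 26 of 27 on a list of receptors, kinases, inhibitors and partners were in the table. Cd244, the receptor of Cd48 that the set left out, had means of 3.01 and 4.32 CPM in untreated and dual ICI mice at 3wk and 1.83 and 2.31 CPM at 5wk. Cd2, the other receptor of Cd48, had 3.89, 6.26, 2.97 and 4.46 CPM in the same groups. Neither passed the test in any comparison. Sh2d1b2, the second EAT-2-like gene, had 0 counts in 29 libraries, which allows up to 0.0802 to 0.155 CPM per library.

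At 3wk, 1 of 25 pathway genes fitted passed as higher and 0 as lower, where 0.471 percent of all genes were higher. It was Itgb2, the beta chain of Mac-1, with 60.5 CPM in untreated and 107 CPM in dual ICI mice. The list had 20 of 25 log2 fold changes above 0, with a median of 0.32. For anti-PD1, for anti-CTLA4 and between them, 0 of 24 pathway genes passed in each (edgeR and DESeq2 passed 0 of all genes there).

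Between untreated mice at 5wk and 3wk, 2 of 24 pathway genes passed, both lower, where 4.58 percent of all genes were lower. Fyn, the kinase that SAP recruits, fell by 0.92 on the log2 scale (SE 0.21, adjusted p 0.0225 by edgeR), from 51.3 to 27.2 CPM. Syk, which acts below Mac-1 partners with activation motifs, fell by 0.71 (SE 0.17, adjusted p 0.0268 by edgeR), from 52.5 to 32.2 CPM. Both moved by amounts near that of Ptprc.

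The family lies close together, which allowed a look at its neighbours. From Cd244 to Slamf8 the locus covers chr1:171559193-172590568, 1.03 Mb that hold 8 of the 10 members and 20 other genes of the table. Of the 15 to 16 other genes fitted, 0 passed in each of the 6 comparisons. Of all genes, 0 percent passed in the comparisons within 5wk, 0.574 percent at 3wk and 10.8 percent between untreated mice. So few neighbours could hold 0 calls at those shares. Their median log2 fold change at 3wk was −0.0043, against 0.96 for the members. The members were chosen by their rise under dual blockade, so nothing is read from that difference.

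Across mice, members were compared after the mean of each group was taken off, over 24 libraries in 5 groups, without dual ICI at 5wk. The libraries share depth and tissue mix, so the values are a description. For the 8 members with a mean of at least 1 CPM, the 28 pairs had a median Pearson r of 0.61, from 0.02 (Slamf8 with Sh2d1b1) to 0.85 (Cd84 with Ly9). Without anti-PD1 library 5, an alternative chosen after the data were seen, the median over 23 libraries was 0.66, from 0.24 (Slamf6 with Slamf9) to 0.84 (Cd84 with Ly9), and Slamf8 with Sh2d1b1 was 0.33.

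The genes with the highest r were then listed for each member. Of 14349 genes, Ly9 was most like C3ar1 (r = 0.96), Lipa (0.92) and Tlr2 (0.92), the complement C3a receptor, a lysosomal lipase and a receptor for bacterial lipoproteins. Cd48 was most like Clec4a1 (0.94), Clec12a (0.89) and Clec4a3 (0.88), which are myeloid lectins. Cd84 was nearest to Igsf6 (0.92), Nckap1l (0.91) and Cd53 (0.91), and Slamf9 to Fcer1g (0.88), with Selplg (0.85) also among its nearest.

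Slamf7 was nearest to Gm12250 (0.87), Cybb (0.86), which encodes the membrane subunit of the phagocyte oxidase, and Tgtp1 (0.85), an interferon-induced GTPase. Slamf8 was nearest to Plbd1 (0.86), Klrk1 (0.83), which encodes the receptor NKG2D, and H2-Aa (0.82), a chain of MHC class II. Slamf6 was nearest to Il7r (0.89), the receptor of interleukin 7 on lymphocytes, AI504432 (0.88) and Pms2 (0.84). Sh2d1b1 was nearest to Lpxn (0.87), Cep83os (0.87) and Tnfrsf26 (0.85). Without anti-PD1 library 5, the first gene of Slamf6, Slamf9, Cd48, Cd84 and Ly9 was again first (r = 0.88, 0.91, 0.94, 0.96 and 0.96). Those of Slamf7, Slamf8 and Sh2d1b1 fell to places 10, 5 and 7 (r = 0.85, 0.82 and 0.84).

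Against marker lists, Ptprc gave the highest value for Slamf7 (0.77), Cd48 (0.85) and Cd84 (0.88). Macrophage markers gave 0.82 with Cd84 and 0.77 with Ly9. Slamf6 had 0.60 with CD8 T cell and 0.65 with dendritic cell markers. With skeletal muscle markers, Ly9 had −0.73 and Slamf6 −0.67, and Slamf8 had 0.46 (Spearman's rho 0.30). Against gastric epithelium Slamf8 had −0.44 (rho −0.17), Slamf7 −0.12 (rho 0.18) and Cd48 −0.01 (rho 0.09). These gastric values rested on anti-PD1 library 5, without which they were 0.06, 0.59 and 0.23, and the muscle value of Slamf8 was 0.27. Without it Ly9 and Slamf6 had −0.73 and −0.63 with muscle, and with Ptprc Slamf7, Cd48 and Cd84 had 0.82, 0.85 and 0.91.

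**Figure D5:**
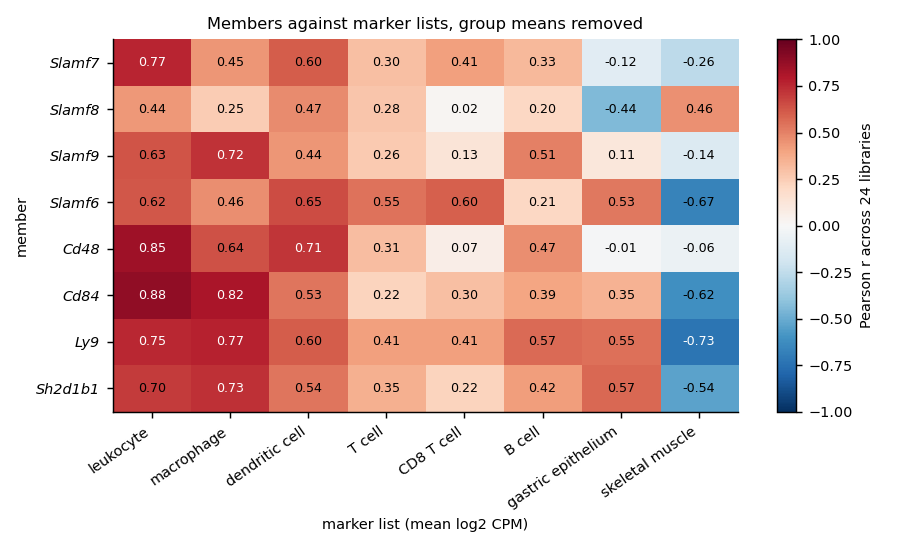
Pearson r of the log2 CPM of 8 genes (rows) with the mean log2 CPM of 8 marker lists (columns) over 24 libraries after removal of group means, on a colour scale from −1 to 1. Cd48 and Cd84 had the highest values with the leukocyte gene Ptprc (0.85 and 0.88), and Slamf8 was the sole gene with a positive value for skeletal muscle (0.46, and 0.27 without anti-PD1 library 5).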

How the data were processed

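Values were raw counts of reads per gene and library, deposited by the authors as 1 table by gene symbol. Per the submitters' processing notes, reads were aligned to mm10 with STAR 2.7.0f and counted with featureCounts 1.6.4, whereas the study's methods name STAR 2.5.2b and HTSeq 0.6.1. The strand setting is not given in the sources used here. Library totals were 25989217 to 31219650 counts.

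Comparisons were fitted with edgeR 4.0.16 in R 4.3.3 (TMM scaling, filterByExpr and its quasi-likelihood test, two-sided, with p adjusted by Benjamini-Hochberg over all genes and a threshold of 0.05), with the 2 groups compared in each fit. The script was tested on simulated data. Alternatives were DESeq2 1.42.0, upper-quartile scaling, library totals alone, no or a stricter count filter (10 counts in every library), a fit of all 29 libraries, removal of muscle markers and the 50 most abundant genes, a replicate block, subsets of the dual ICI libraries at 5wk and leave-one-out. Each p weighs the difference between 2 groups against the spread between libraries, each taken as 1 mouse. No 2 libraries of a group were duplicates by a chi-square test (smallest value per gene 13.5).

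The members and lists were chosen with earlier results of these data known. Genes named were the 10 members, for each member with a mean of at least 1 CPM the 3 genes with the highest r, pathway and marker genes with an adjusted p under 0.05 (at most 4 per list and contrast), Cd244 and Sh2d1b2. Of the genes this rule names, 1 is not reported here. Cd2, Itgb2 and Ptprc were named after their values were seen. Positions came from the GRCm38 annotation and promoters from RefSeq (GRCm38.p6). CPM were computed from TMM-scaled totals, tables and figures in python 3.11.15 with scipy 1.17.1, pandas 2.3.3 and matplotlib 3.10.9.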

Additional observations from a re-analysis of the deposited data

Results flagged for a closer look

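In 3 of 60 combinations of a member and a group, 1 library stood apart by Dixon's test, about as often as the 1 in 20 that chance gives. Slamf9 in anti-PD1 library 3 was 9.65 CPM, above the 6.56 to 7.33 CPM of the other 4 mice. Ly9 in untreated library 4 at 3wk was 11.1 CPM, above 7.98 to 8.83 CPM. Sh2d1a in anti-PD1 library 1 was 0.0964 CPM, from 3 counts, below 0.258 to 0.305 CPM.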

How the results depend on the processing

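Between dual ICI and untreated mice at 3wk, 89 genes passed, against 502 with DESeq2, 15 with library totals alone (chosen after seeing the data), 8 with all 29 libraries in 1 fit and 209 with the replicate block. Leaving out 1 library gave 6 (without untreated library 5) to 119 genes (without dual ICI library 1). The members passing were 2, against 7 with DESeq2, 1 with at least 10 counts in every library, 1 with all 29 libraries, 5 with the replicate block and 2 to 4 without 1 library. At 5wk the same comparison gave 0 genes, 46 with DESeq2 and 7067 (2 members) with dual ICI libraries 2, 3 and 4 alone. Between untreated mice at 5wk and 3wk, 1687 genes passed, 3168 with DESeq2 and 654 to 4915 without 1 library (the most without untreated library 2 at 5wk). In place of the 1 member that passed there, 2 passed with DESeq2, 0 with totals alone, 0 with all 29 libraries, 0 with the replicate block and 0 to 2 without 1 library. The causes were not tested.

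The replicate numbers did not pair the mice: the correlation of same-numbered mice was as low as −0.74 in 1 comparison and below 0 in at least 1 pair of each. Under the replicate block, the sign turned for Sh2d1b1 under anti-CTLA4 (0.062) and Ly9 between untreated mice (−0.033), and between the antibodies for Slamf7 (−0.17), Slamf8 (−0.13) and Slamf9 (0.035).

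Other signs turned in log2 fold changes near 0. For anti-PD1, Cd48 (0.01) was −0.010 with upper-quartile scaling, −0.040 with totals alone and −0.0046 with the stricter filter. Between the antibodies, Slamf7 was −0.036 with totals alone and Slamf9 was 0.0050 with DESeq2, and between untreated mice Slamf6 was 0.048 with totals alone. Without 1 library, the ranges that crossed 0 for anti-CTLA4 were −0.076 to 0.35 (Cd48), −0.15 to 0.15 (Ly9), −0.26 to 0.10 (Sh2d1b1), −0.42 to 0.22 (Slamf8) and −0.32 to 0.052 (Slamf9). For anti-PD1 they were −0.10 to 0.14 (Cd48), −0.19 to 0.24 (Slamf6), −0.25 to 0.29 (Slamf8) and −0.28 to 0.063 (Slamf9). Between the antibodies they were −0.36 to 0.078 (Cd48), −0.32 to 0.0047 (Cd84), −0.13 to 0.25 (Slamf7), −0.21 to 0.55 (Slamf8) and −0.13 to 0.21 (Slamf9). Between untreated mice they were −0.085 to 0.22 (Ly9), −0.022 to 0.35 (Sh2d1b1), −0.22 to 0.036 (Slamf6) and −0.11 to 0.22 (Slamf9). The median pair correlation of 0.61 moved by under 1 SD under its 3 alternatives, the one without anti-PD1 library 5 (0.66) chosen after seeing the data. Counts of at most 27 limit Slamf1 in all 29 libraries, and counts of at most 29 limit Sh2d1a in all but dual ICI library 4 at 3wk (41).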
